A study of Mus musculus with 14 samples.

Results

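The mitochondrially encoded genes are the genes carried by the mitochondrial genome itself, and they were followed through all the RNA-seq libraries of this study of lactate in mouse 2-cell embryos. They were taken as every row of the count table whose gene name starts with mt-, which gave 37 of 56923 genes, namely 13 protein-coding genes, 2 rRNA genes and 22 tRNA genes. These are all 37 genes that the mm39 annotation places on the mitochondrial chromosome, which is 16299 bases long. Embryos came from ICR mice, and each of the 14 libraries was made from 5 embryos, with 2 libraries in each of 7 conditions. Early 2-cell embryos, collected 30 h after hCG, and late 2-cell embryos, collected at 54 h, were cultured with 5 µM Gne140, an inhibitor of lactate dehydrogenase, and 50 µM NMN, a precursor of NAD, either with 10 mM lactate (G&N) or without lactate (G&N-L). A further late 2-cell condition, Lac-CoA, was the G&N-L culture of embryos injected as zygotes with lactyl-CoA, the acyl donor of lysine lactylation. The remaining late 2-cell conditions, WT and H3K18R, were embryos injected as zygotes with mRNA of the H3.1, H3.2 and H3.3 histones, unchanged or with arginine in place of lysine 18, and Gne140 and NMN are not named in their labels. The medium of WT and H3K18R was taken to be the control medium of the methods, which held 10 mM lactate. Injected zygotes carried their own H3 genes as well. The titles were followed where other labels said less or differed: the treatment field gives GNE140 alone for early G&N, GNE140 and NMN with no word on lactate for early G&N-L, and CoA for Lac-CoA, and the table heads the mutant columns K18A where the titles have H3K18R.

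Mitochondrial DNA is inherited from the oocyte. It is transcribed from both strands into long RNAs that run through several genes, and these are cut into separate RNAs largely at the tRNAs that lie between the rRNA and protein-coding genes. On the strand that carries most genes, the rRNAs come first, followed by mt-Nd1, mt-Nd2, mt-Co1 and, near the far end, mt-Nd4, mt-Nd5 and mt-Cytb, while mt-Nd6 is read from the opposite strand. The protein-coding genes encode subunits of complex I (the mt-Nd genes), complex III (mt-Cytb), complex IV (the mt-Co genes) and ATP synthase (mt-Atp6 and mt-Atp8), all of them needed for oxidative phosphorylation, and the rRNAs mt-Rnr1 and mt-Rnr2 are the small and large rRNA of the mitochondrial ribosome. In bulk libraries, less RNA per mitochondrion, fewer mitochondrial genomes and more RNA from the nucleus cannot be told apart.

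Part of the mitochondrial genome has a near-identical copy in the nuclear genome, and the sequences show how little separates them. A stretch of chromosome 1, chr1:24650616-24655269 on the minus strand of mm39, matched mitochondrial positions 6390 to 11042 at 99.936% identity over 4654 aligned bases. It differed by the substitutions A6393T in mt-Co1 and T9461C in mt-Nd3, with the mitochondrial base first and positions counted on the mitochondrial reference, and by 1 extra base after position 9820 in mt-Tr. The mt-Nd3 difference is the capital letter in the following windows, chrM:9446-9476 of the plus strand and chr1:24652183-24652213 of the minus strand.
mt-Nd3, mitochondrial genome: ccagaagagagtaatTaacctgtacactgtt
mt-Nd3, nuclear copy: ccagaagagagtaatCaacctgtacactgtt
A read from elsewhere in this stretch carries no base that tells the copies apart. All of the 100-base windows of mt-Co2, mt-Atp8 and mt-Atp6 had an exact match in the nuclear genome, as had 96.7% of those of mt-Co3, 89.1% of mt-Nd4l, 61.3% of mt-Nd4, 60.4% of mt-Nd3 and 36.4% of mt-Co1. For the other 7 of the 15 rRNA and protein-coding genes the share was at most 2.64%. How reads with several matches were counted is not given in the sources used here. Reading frames also overlap on the mitochondrial genome itself, as in the following stretch, chrM:7915-7981, where the 43 bases in capitals belong to both mt-Atp8 and mt-Atp6.
mt-Atp8 and mt-Atp6: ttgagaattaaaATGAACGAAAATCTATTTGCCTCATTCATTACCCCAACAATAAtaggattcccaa

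The libraries held 20350427 to 61275465 counts. Summed late 2-cell markers (10 genes such as Zscan4d and Dppa4) ran from 20.2 to 87.2 counts per 1000000 counts of the library (CPM) in the early libraries and from 1994 to 3428 CPM in the late ones, so the stage labels matched their markers. Summed cumulus cell markers (15 genes, 2 of them at 0 throughout, among them Amh) stayed between 0.856 and 26.8 CPM. Summed oocyte markers (10 genes such as Gdf9 and Bmp15) were between 11600.6 and 23485 CPM in the 10 libraries with Gne140 and NMN, and between 3855 and 9010.3 CPM in the 4 WT and H3K18R libraries. This sum follows the genes with the most counts, such as Btg4 with up to 839376 in a library. Zp3, with up to 5081, went the other way and was higher relative to library totals in WT and H3K18R. Labels did not say whether the 2 libraries of a condition came from separate cultures or animals, so p-values measure the spread between these libraries, which may be technical.

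Levels differed widely between the genes. On the scale of CPM per kilobase of gene, mt-Cytb had the highest median over the 14 libraries, 15263, with a range of 8025 to 50348. It was followed by mt-Nd1 (10513), mt-Rnr2 (7858), mt-Co1 (5461), mt-Nd2 (4921) and mt-Rnr1 (3410). Most genes that share sequence with chromosome 1 were low on the same scale: mt-Atp6 had a median of 419, mt-Co2 of 127, mt-Atp8 of 119, mt-Co3 of 63.5, mt-Nd4l of 15.8 and mt-Nd3 of 6.53, while mt-Nd4, of which a smaller part is shared, had 1538. mt-Nd5 (605) and mt-Nd6 (272) lie outside the copy and were intermediate. In each library mt-Cytb, mt-Nd1, mt-Nd2 and mt-Co1 together held 87.9% to 91.6% of the protein-coding counts.

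**Figure D1:**
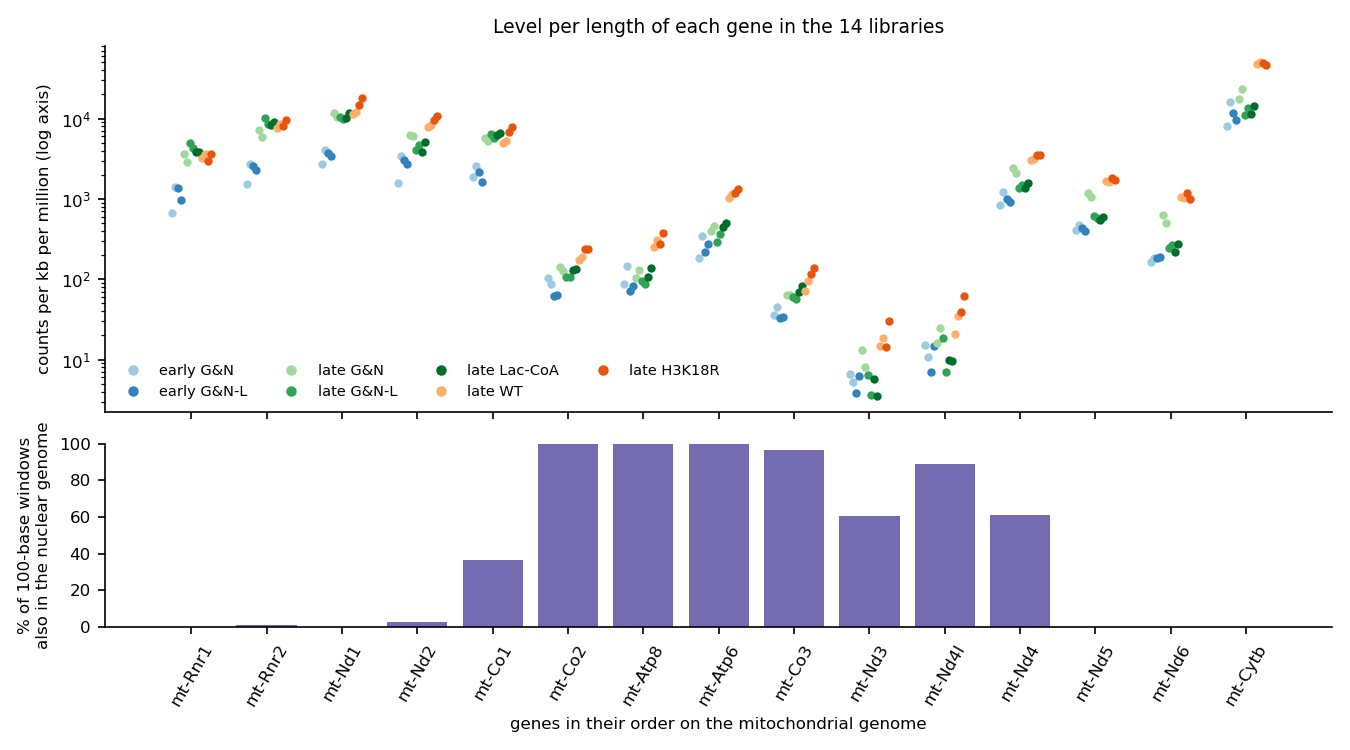
The upper panel plots the level of each rRNA and protein-coding gene in CPM per kilobase on a log axis, with 1 point for each of the 14 libraries in the colour of its condition. Bars in the lower panel give the percentage of 100-base windows of each gene that also occur in the nuclear genome, and the lowest levels in the upper panel belong to mt-Nd3 (median 6.53), mt-Nd4l (15.8) and mt-Co3 (63.5), whose bars are at 60.4%, 89.1% and 96.7%.

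The nuclear copy has 7 annotated pseudogenes, and all of them received counts. Gm10925, the copy of mt-Atp6, had 424 to 6825 CPM, with a median of 6.98 counts for each count of mt-Atp6. Gm28438, the copy of mt-Nd3, had a median of 16.5 counts for each count of mt-Nd3, and Gm28437, Gm10222 and Gm28661 had 1.94, 2.54 and 1.62 for each count of mt-Co3, mt-Nd4l and mt-Co2. In contrast, Gm29216 and Gm28439 had 0.00693 and 0.00963 counts for each count of mt-Co1 and mt-Nd4. Counts of the genes between mt-Co2 and mt-Nd4l may therefore be split between both places, and values for these genes are uncertain. In the test over all 7 conditions described further on, 4 of the 7 pseudogenes passed, with the smallest adjusted p for Gm28438 (0.000168) and Gm10925 (0.00243).

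The share of all counts that came from the mitochondrial genome differed between the conditions. It was 2.17% and 3.85% in the early G&N libraries and 3.13% and 2.65% in the early G&N-L libraries. In late 2-cell embryos it was 6.77% and 6.84% with G&N, 6.12% and 6.004% with G&N-L, and 5.65% and 6.50% with Lac-CoA. The highest shares were found in WT embryos, with 10.6% and 11.2%, and in H3K18R embryos, with 11.7% and 12.2%. The Wilson 95% interval of any of these shares was at most 0.0139 percentage points to either side, which covers counting error only, since PCR copies without molecular identifiers are not independent molecules. Early, late Gne140-treated and injected H3 libraries formed ranges that did not overlap, whereas the early conditions overlapped each other, and so did G&N-L and Lac-CoA.

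**Figure D2:**
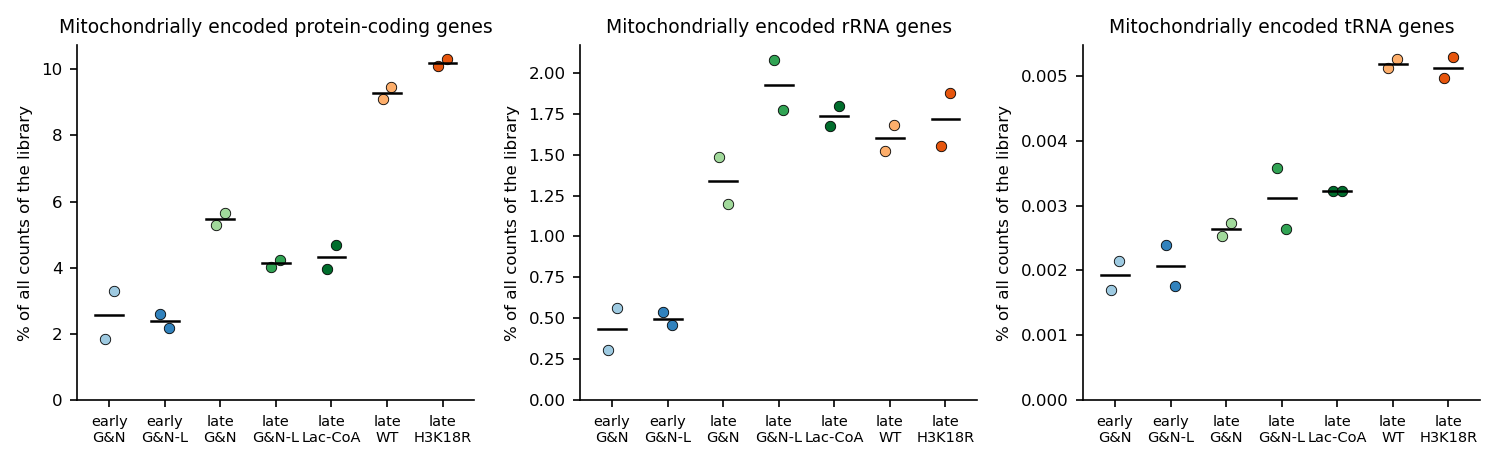
Points give the percentage of all counts of a library that came from mitochondrially encoded protein-coding, rRNA and tRNA genes, with the 2 libraries of each condition side by side and a line at their mean. Protein-coding shares rise from means of 2.57% and 2.39% in the early conditions to 9.28% in WT and 10.2% in H3K18R, while the rRNA share is highest in late G&N-L, with a mean of 1.93%.

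The classes did not follow the same order. Protein-coding genes held 2.57% ± 1.01 (SD, n = 2) of the counts in early G&N, 2.39% ± 0.281 in early G&N-L, 5.46% ± 0.253 in late G&N, 4.13% ± 0.137 in late G&N-L, 4.33% ± 0.516 in Lac-CoA, 9.28% ± 0.266 in WT and 10.2% ± 0.147 in H3K18R embryos. The rRNA genes held 0.434% ± 0.181 and 0.496% ± 0.0555 in early G&N and G&N-L, and 1.34% ± 0.202, 1.93% ± 0.216, 1.73% ± 0.0875, 1.60% ± 0.114 and 1.72% ± 0.228 in late G&N, G&N-L, Lac-CoA, WT and H3K18R. Late G&N-L thus ranked above late G&N for rRNA and below it for protein-coding genes, without overlap of the libraries in either class. The tRNA genes held between 0.00170% and 0.00529% of the counts. Spread between libraries of a condition was compared with all other ways to pair the 14 libraries in an exact permutation test of log2 shares over 135135 pairings (1-sided, adjusted over the 5 measures tested). The adjusted p was 0.00126 for all mitochondrially encoded genes, 0.00126 for the protein-coding genes, 0.00895 for the rRNA genes, 0.00197 for the tRNA genes and 0.00126 for the ratio of rRNA to protein-coding counts. With the 10 late libraries alone the rRNA share no longer passed (adjusted p = 0.103 in the exact permutation test), and without the WT and H3K18R libraries the tRNA share did not (0.0751).

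Of the 5 measures, that ratio had the largest fold difference between late embryos with and without lactate. Among the late libraries, those of a condition lay further apart in it than in the share of all mitochondrially encoded genes (pooled SD 0.184 against 0.0717, log2). Over all 14 libraries they lay closer together in it (0.156 against 0.239). It was 0.281 and 0.212 in late G&N, 0.515 and 0.419 in late G&N-L, 0.421 and 0.382 in Lac-CoA, 0.167 and 0.177 in WT and 0.154 and 0.182 in H3K18R. In early embryos it was 0.165 and 0.171 with G&N and 0.207 and 0.208 with G&N-L. Every G&N-L and Lac-CoA late library was above every other library. The geometric mean of G&N-L was 1.90-fold that of G&N at the late stage and 1.24-fold at the early stage, without overlap in either. With 2 libraries in each condition the smallest two-sided p of an exact permutation test is 0.333, so that no single value could pass such a test between a pair of conditions. The ratio of mt-Rnr2 to mt-Rnr1 counts varied less, from 3.07 to 4.54.

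**Figure D3:**
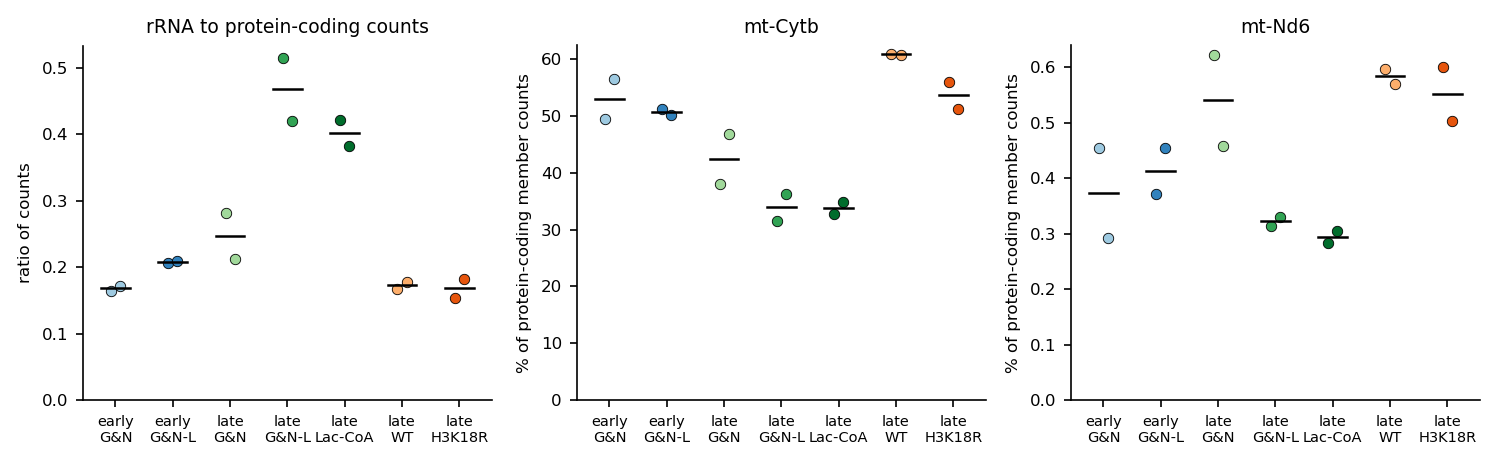
Points give, for each library, the ratio of rRNA to protein-coding counts of the mitochondrial genome, the percentage of protein-coding counts from mt-Cytb and the percentage from mt-Nd6, with a line at the mean of 2 libraries. The ratio lies between 0.382 and 0.515 in late G&N-L and Lac-CoA and at or below 0.281 elsewhere, and mt-Cytb takes 31.5% to 36.3% of the protein-coding counts in these 4 libraries and 60.8% to 60.9% in WT.

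Among the protein-coding counts, those of mt-Cytb, the complex III subunit, took the largest share in every library, and that share moved with the condition. It was 49.4% and 56.5% in early G&N, 51.2% and 50.2% in early G&N-L, 38.0% and 46.9% in late G&N, 31.5% and 36.3% in late G&N-L, 32.8% and 34.8% in Lac-CoA, 60.9% and 60.8% in WT and 55.9% and 51.3% in H3K18R. The share was thus lowest in the 4 late libraries without lactate in the culture and highest in WT. mt-Nd6 from the opposite strand took 0.454% and 0.292% in early G&N, 0.372% and 0.454% in early G&N-L, 0.622% and 0.459% in late G&N, 0.314% and 0.330% in late G&N-L, 0.282% and 0.304% in Lac-CoA, 0.597% and 0.570% in WT and 0.601% and 0.503% in H3K18R. Its share in late G&N-L and Lac-CoA lay below that in every other late library and overlapped with early G&N. The libraries keep no strand, so here and below counts of mt-Nd6 may include RNA of the other strand at its position.

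Gene by gene, most rRNA and protein-coding genes differed among the 7 conditions. In edgeR's quasi-likelihood test over all 14 libraries, 11 of the 13 protein-coding genes and both rRNA genes had an adjusted p under 0.05, where 23.7% of all 25041 genes tested had. DESeq2 passed 17 of the 22 mitochondrially encoded genes tested and 37.5% of all genes. The smallest adjusted p-values were 9.94e-06 for mt-Nd6, a complex I subunit, and 1.7e-05 for mt-Nd5, also of complex I. mt-Nd3 (adjusted p = 0.257) and mt-Nd4l (0.174), the genes with the fewest counts, did not pass, although DESeq2 gave them 0.00733 and 0.00807. Of the 22 tRNA genes 7 passed the filter on low counts, and of these mt-Tp passed the test (adjusted p = 0.00971).

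All protein-coding genes other than mt-Cytb had their highest mean CPM in H3K18R embryos, inside and outside the nuclear copy. mt-Cytb had a mean of 54618 CPM there and of 56507 CPM in WT. The genes from mt-Co2 to mt-Nd4l lie within the nuclear copy. mt-Atp6, the ATP synthase subunit that has no unique window, was at 125 and 236 CPM in early G&N, 147 and 187 in early G&N-L, 269 and 312 in late G&N, 201 and 248 in late G&N-L, 302 and 338 in Lac-CoA, 694 and 780 in WT and 809 and 895 in H3K18R. mt-Co2, a complex IV subunit, was at 71.6 and 60.5 CPM in early G&N, 41.7 and 44.2 in early G&N-L, 96.7 and 86.2 in late G&N, 72.1 and 73.3 in late G&N-L, 88.2 and 92.2 in Lac-CoA, 119.7 and 129.7 in WT and 161 and 164 in H3K18R. In both genes WT and H3K18R were above all other libraries, and Lac-CoA was above G&N-L without overlap. mt-Atp8 was between 14.4 and 76.3 CPM and mt-Co3 between 25.7 and 107 CPM, and mt-Nd3 and mt-Nd4l had at most 10.4 and 18.5 CPM.

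From the early to the late 2-cell stage, mitochondrially encoded RNA took a larger share of the counts with and without lactate. Over the 8 libraries of embryos cultured with Gne140 and NMN and not injected, the share of all mitochondrially encoded genes was 2.23-fold higher at the late stage, that of the protein-coding genes 1.96-fold, that of the rRNA genes 3.53-fold and that of the tRNA genes 1.44-fold, and the ratio of rRNA to protein-coding counts was 1.80-fold higher. For each of these 5 measures every late library was above every early library, and the exact permutation test of 4 against 4 libraries gave p = 0.0286, both raw and adjusted, which is the smallest it can give. These are shares of library totals. TMM, the scaling that the fits below use, put the median of all genes at 0.08 (log2) in G&N and 0.15 in G&N-L between the stages, and library totals put it at 0.46 and 0.51, so that fitted changes between the stages depend on the scaling by about this difference.

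In G&N embryos mt-Nd6 rose between the stages. It was at 84.4 and 96.0 CPM in the early libraries and at 329 and 259 CPM in the late ones, an increase of 1.30 ± 0.27 (log2, SE) in the edgeR fit with an adjusted p of 0.0388. It was the only mitochondrially encoded gene called of the 20 tested, while 13.7% of all genes were called and 8.18% were called as higher, and DESeq2 called 6 of them and 30.6% of all genes. Its call was lost when either late library or the first early library was left out (adjusted p up to 0.170). mt-Nd1 was at 2604 and 3848 CPM early and at 11252 and 10027 CPM late, with a log2 fold change of 1.30 ± 0.33 and an adjusted p of 0.0582. Both rRNAs were higher without overlap of the libraries, as were 12 of the 13 protein-coding genes and 41.3% of all genes in CPM and 8 of the 13 and 34.8% of all genes on the TMM scale, with log2 fold changes of 1.21 for mt-Rnr1 and 1.19 for mt-Rnr2 and adjusted p-values of 0.129 and 0.0940. mt-Cytb, at 9180 and 18578 CPM early and at 20068 and 26447 CPM late, had a log2 fold change of 0.32 ± 0.47. The early libraries lay far apart here: without the second of them, the median of the protein-coding genes went from 0.44 to 1.09. Over the protein-coding genes, 12 of 13 had a log2 fold change above 0, against 51.8% of all genes.

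In G&N-L embryos the genes at the start of the long transcript rose on the TMM scale, together with mt-Co1. mt-Rnr1 was at 1315 and 926 CPM early and at 4717 and 4165 CPM late (log2 fold change 1.62 ± 0.23, adjusted p = 0.0181). mt-Rnr2 was at 4036 and 3640 CPM early and at 16067 and 13560 CPM late (1.58 ± 0.15, adjusted p = 0.00780). mt-Nd1, the complex I subunit next to the rRNAs, was at 3603 and 3228 CPM early and at 10096 and 9421 CPM late (1.15 ± 0.13, adjusted p = 0.0125). mt-Co1, the catalytic subunit of complex IV, was at 3388 and 2496 CPM early and at 9873 and 8969 CPM late (1.31 ± 0.20, adjusted p = 0.0217). These were the 4 called of 20 tested, beside 11.8% of all genes and 5.97% called as higher, and DESeq2 called them too, together with the tRNA gene mt-Tq, beside 28% of all genes. The calls of mt-Rnr2 and mt-Nd1 held when any library was left out, and those of mt-Rnr1 and mt-Co1 were lost without either late library (adjusted p of up to 0.0878). In the same libraries mt-Nd6, at 96.2 and 99.3 CPM early and at 127 and 140 CPM late, had a log2 fold change of 0.08 ± 0.17, and mt-Cytb, at 13256 and 11005 CPM early and at 12711 and 15349 CPM late, had -0.16 ± 0.17. Neither passed the test. This selection depends on the scaling. With library totals in place of TMM, mt-Nd2 (0.61) and mt-Nd4 (0.58) passed too, with adjusted p-values of 0.0418 and 0.0428 in edgeR, where 2504 of 18604 genes were called. On that scale mt-Nd5 had 0.54, mt-Nd6 0.45 and mt-Cytb 0.21, and they did not pass. Scaled to the sum of the mitochondrially encoded genes themselves, a scaling chosen after seeing the data, mt-Rnr1 rose by 0.93 and mt-Rnr2 by 0.87 while mt-Cytb fell by 0.86 (adjusted p of 0.0215, 0.0193 and 0.0225), where 20.3% of all genes were called.

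**Figure D4:**
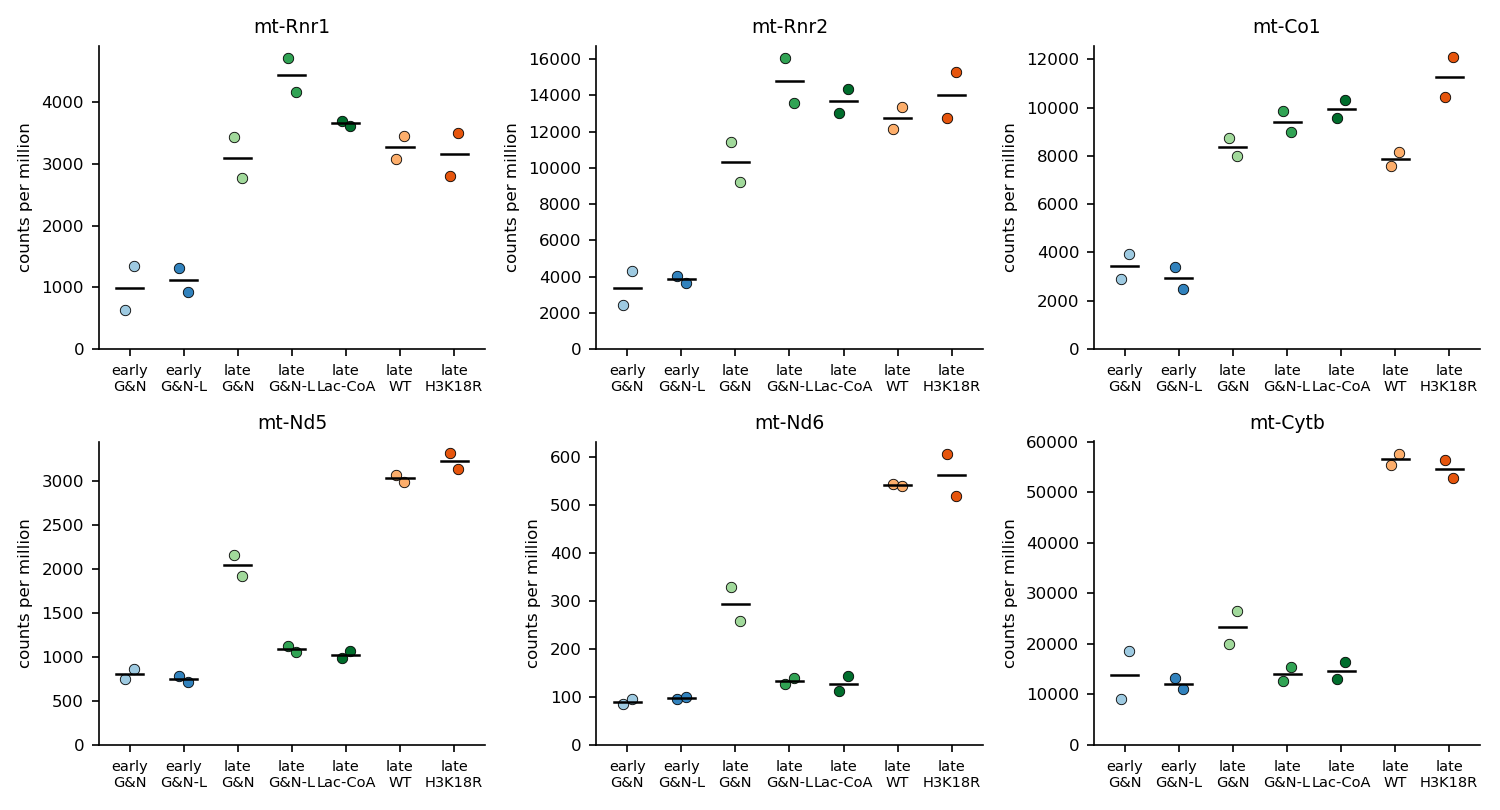
Each panel gives the CPM of a gene in the 14 libraries, scaled to the library total, with the 2 libraries of a condition as points and their mean as a line. The rRNAs and mt-Co1 are higher in late G&N-L than in late G&N without overlap of the libraries, whereas mt-Nd5, mt-Nd6 and mt-Cytb in late G&N-L and Lac-CoA stay below every late G&N library and below WT and H3K18R.

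Whether these RNAs differed in embryos without lactate was asked at the late stage by comparing G&N-L with G&N. Protein-coding genes were lower and rRNAs higher in G&N-L, and the difference tended to follow the order of the genes on the genome. mt-Nd6 was at 329 and 259 CPM in G&N and at 127 and 140 CPM in G&N-L, a log2 fold change of -1.17 ± 0.21. mt-Nd5 was at 2165 and 1922 CPM against 1132 and 1058 CPM (-0.93 ± 0.15), mt-Nd4 at 3308 and 2933 CPM against 1882 and 2051 CPM (-0.69 ± 0.15), and mt-Cytb at 20068 and 26447 CPM against 12711 and 15349 CPM (-0.76 ± 0.20). In these 4 genes both G&N-L libraries were below both G&N libraries. Nearer the start of the transcript, the conditions lay closer together in mt-Nd1 (-0.15 ± 0.13) and mt-Co1 (0.14 ± 0.13). mt-Nd2, which lies between these genes, departed from the order with -0.53 ± 0.15. It was at 6542 and 6339 CPM in G&N against 4179 and 4914 CPM in G&N-L. The rRNAs were on the other side, with mt-Rnr1 at 3432 and 2767 CPM in G&N against 4717 and 4165 CPM in G&N-L (0.49 ± 0.16) and mt-Rnr2 at 11401 and 9211 CPM against 16067 and 13560 CPM (0.50 ± 0.16). None of these differences passed the adjusted threshold in edgeR, where the smallest adjusted p of a mitochondrially encoded gene was 0.311 and 0 of 19481 genes (0%) were called. At an unadjusted p under 0.05, mt-Nd2, mt-Nd4, mt-Nd5, mt-Nd6 and mt-Cytb were lower and both rRNAs higher, against 7.65% of all genes lower and 4.32% higher. DESeq2 on the same libraries called mt-Nd4, mt-Nd5 and mt-Nd6 lower, with adjusted p-values of 0.0257, 0.000471 and 0.000342, where it called 4.70% of all genes.

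Over the whole class, 12 of 13 protein-coding genes had a log2 fold change below 0, against 51% of all genes, and in 10 of them both G&N-L libraries were below both G&N libraries in CPM, as in 22.7% of all genes. On the TMM scale this was so in 11 genes, mt-Nd1 added, and in 23.5% of all genes. Their median was -0.53, and that of all genes -0.02. The other 3 genes were mt-Co1, which was higher without overlap, as were both rRNAs and 21% of all genes, and mt-Nd1 and mt-Nd4l, whose libraries overlapped in CPM. All 15 rRNA and protein-coding genes kept their sign in each of 12 alternative settings of scaling, filter, model and library left out. In the scaling to the sum of the mitochondrially encoded genes, chosen after seeing the data, mt-Nd1 and mt-Co3 turned to 0.04 and 0.05 and the other 13 kept their sign. Between the midpoint of a gene on the genome and its log2 fold change, Pearson's r was -0.84 and Spearman's rho -0.84 over the 15 genes, and r was -0.90 over the 7 genes outside the nuclear copy. The genes share the same 4 libraries and, apart from mt-Nd6, are cut from common transcripts, so these coefficients describe the pattern only. mt-Nd6 is read from the opposite strand and was among both the 15 and the 7 genes. Such a relation was not particular to this comparison. Over the 7 genes r was -0.90 for Lac-CoA against G&N, -0.89 between the stages in G&N-L, -0.74 for early G&N-L against G&N and 0.90 for WT against G&N. Over the 15 genes these were -0.71, -0.79, -0.33 and 0.60. Between the stages in G&N, in H3K18R against WT and in Lac-CoA against G&N-L it was -0.53, -0.38 and 0.35 over the 7 genes. The oocyte markers, summed, were at 14501 and 15187 CPM in late G&N and at 19097 and 21642 CPM in late G&N-L. Nlrp5 and Zp3 of this list went the other way. Nlrp5 had 4337 and 3577 counts in G&N-L against 4778 and 8531 in G&N, and Zp3 had 1426 and 1782 against 2024 and 2663. The part of these markers in the result was not tested.

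**Figure D5:**
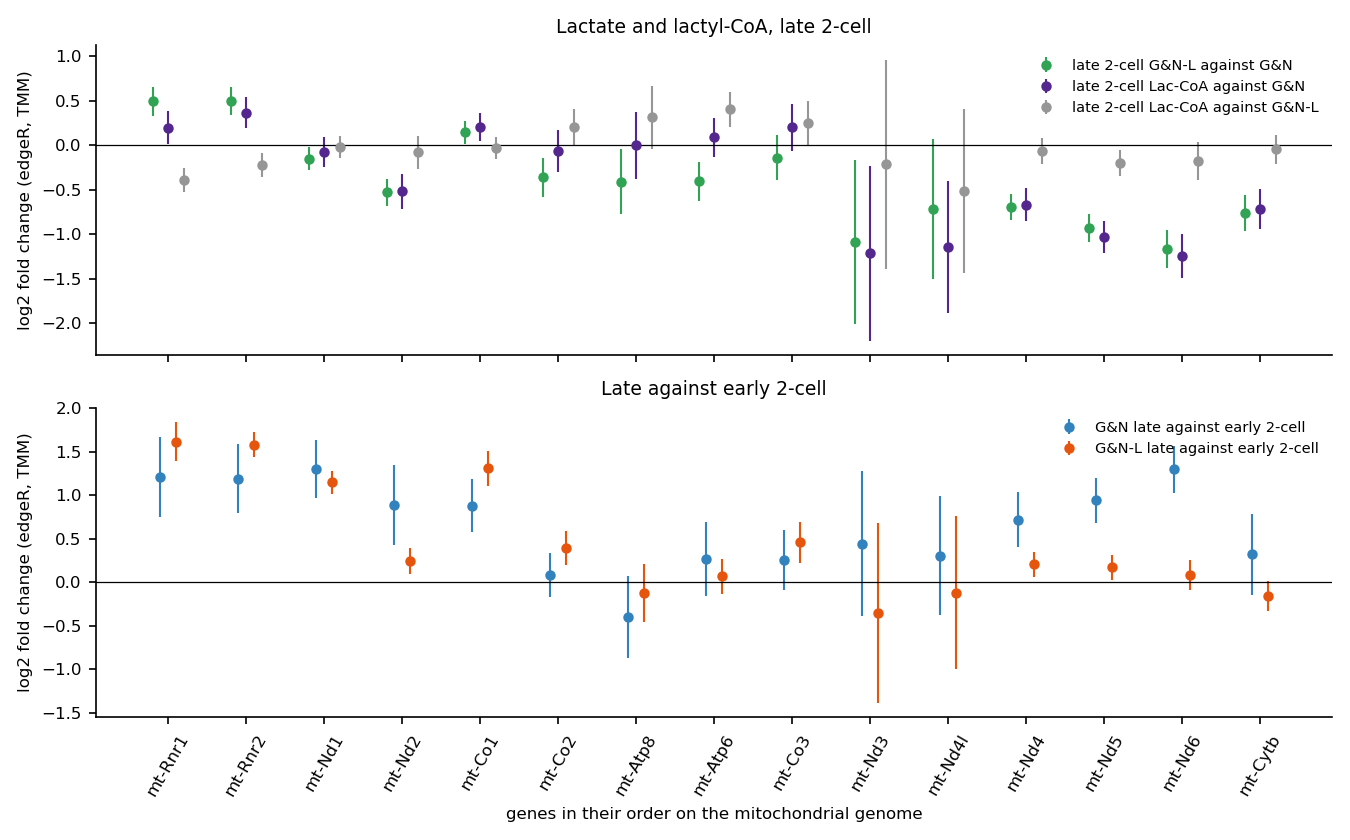
Points give the log2 fold change of each rRNA and protein-coding gene from the edgeR fit, with bars of 1 SE, for comparisons among late conditions (upper panel) and between stages (lower panel), with the genes in their order on the mitochondrial genome. In late G&N-L against G&N the values go from 0.49 at mt-Rnr1 to -1.17 at mt-Nd6, and the widest bars belong to mt-Nd3 and mt-Nd4l, which had the fewest counts.

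At the early stage the libraries with and without lactate overlapped in most genes. mt-Nd6 was at 84.4 and 96.0 CPM in G&N and at 96.2 and 99.3 CPM in G&N-L (log2 fold change 0.14 ± 0.23), mt-Nd5 had -0.08 ± 0.21, mt-Rnr1 0.17 ± 0.45 and mt-Rnr2 0.19 ± 0.35. In CPM, overlap was found in 9 of 13 protein-coding genes and in both rRNAs. mt-Nd6 was higher in G&N-L by a narrow margin, beside 14.5% of all genes, and mt-Co2, mt-Atp8 and mt-Co3 were lower, beside 17.7% of all genes. On the TMM scale mt-Co2 alone did not overlap. It was at 71.6 and 60.5 CPM against 41.7 and 44.2 CPM (-0.59 ± 0.21) and lies within the nuclear copy, while 17.1% of all genes were lower without overlap on the TMM scale. edgeR called 0 of 17343 genes (0%), and mt-Co2 was the only mitochondrially encoded gene with an unadjusted p under 0.05, where 4.52% of all genes had such a p. DESeq2 called none of them, and 0.213% of all genes. The difference between the stages was itself tested as the interaction of stage and lactate in the 8 libraries. mt-Nd6 had an interaction of -1.26 ± 0.32 and mt-Nd5 of -0.81 ± 0.28 (log2), with adjusted p-values of 0.571 and 0.650 in edgeR, which called 0 of 22287 genes (0%). At an unadjusted p under 0.05 these were the only mitochondrially encoded genes, beside 7.55% of all genes, and DESeq2 called mt-Nd6 alone (adjusted p = 0.0218), with 1.01% of all genes called. An effect of lactate limited to the late stage is thus not shown by edgeR's test.

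Lac-CoA embryos, injected as zygotes and cultured as G&N-L, were compared with both late conditions, in comparisons that share libraries. G&N and G&N-L embryos were not injected, so injection itself and lactyl-CoA cannot be told apart here. Against G&N-L the protein-coding genes had a median log2 fold change of -0.05 (all genes -0.01) and a range of -0.51 to 0.40. mt-Nd6 was at 112 and 143 CPM with Lac-CoA against 127 and 140 CPM without (-0.17 ± 0.21), mt-Nd5 at 985 and 1075 CPM against 1132 and 1058 CPM (-0.20 ± 0.14), and mt-Cytb at 13016 and 16344 CPM against 12711 and 15349 CPM (-0.05 ± 0.16). mt-Rnr1 was at 3691 and 3623 CPM with Lac-CoA, below both G&N-L libraries, with a log2 fold change of -0.39 ± 0.13 and an adjusted p of 0.314, and mt-Rnr2 had -0.22 ± 0.13. edgeR called 0 of 19610 genes (0%), and mt-Rnr1 alone had an unadjusted p under 0.05, beside 13.3% of all genes. DESeq2 called 0 of the mitochondrially encoded genes and 6.03% of all genes. Against G&N, the Lac-CoA libraries had log2 fold changes of -1.25 ± 0.25 for mt-Nd6, -1.03 ± 0.18 for mt-Nd5, -0.72 ± 0.22 for mt-Cytb and -0.67 ± 0.18 for mt-Nd4, with 0 of 19613 genes (0%) called by edgeR and an adjusted p of at least 0.500 for each mitochondrially encoded gene. In 5 protein-coding genes the unadjusted p was under 0.05, all of them lower, where 4.1% of all genes were. DESeq2 called mt-Nd4, mt-Nd5 and mt-Nd6 lower here too, with adjusted p-values of 0.0411, 6.08e-05 and 0.000310, beside 2.4% of all genes. The genes within the nuclear copy from mt-Co2 to mt-Co3 had values near those of G&N, between -0.06 and 0.20.

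WT embryos, injected with unchanged H3 mRNA and labelled without Gne140 or NMN, were compared with late G&N embryos. In WT, mt-Cytb rose to 55416 and 57598 CPM from 20068 and 26447 CPM (log2 fold change 1.24 ± 0.21, adjusted p = 0.0446), and mt-Atp6, a subunit of ATP synthase, rose to 694 and 780 CPM from 269 and 312 CPM (1.31 ± 0.21, adjusted p = 0.0429). These were the 2 called of 19 mitochondrially encoded genes tested, beside 4.62% of all genes and 1.94% called as higher, and both calls were lost when the first G&N library or either WT library was left out (adjusted p of up to 0.120 for mt-Atp6 and 0.0949 for mt-Cytb). DESeq2 called 7 of them and 21.6% of all genes. mt-Nd6 was at 543 and 540 CPM (0.85 ± 0.20, adjusted p = 0.0710), while mt-Rnr1 (0.05 ± 0.18), mt-Nd1 (0.05 ± 0.16) and mt-Co1 (-0.12 ± 0.16) had values near 0. All genes had a median of -0.16 in this comparison. Relative to the sum of the mitochondrially encoded genes, mt-Co1 was lower in WT by -0.77 ± 0.14 (adjusted p = 0.0371, 10.3% of all genes called). Injection and culture differ together between these conditions and cannot be told apart, and the summed oocyte markers were at 3855 and 3862 CPM in WT against 14501 and 15187 CPM in G&N. Relative to library totals, Zp3 of that list went the other way.

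H3K18R embryos were compared with WT embryos to ask for an effect of lysine 18 of H3. The protein-coding genes had a median log2 fold change of 0.32, and all genes 0.03. Of the 13 genes 12 were above 0, against 51.4% of all genes, and 9 were higher without overlap in CPM, as were 20.2% of all genes, or 8 and 19.6% of all genes on the TMM scale. Those 8 kept their sign in each of 12 alternative settings, while mt-Nd3, mt-Atp8, mt-Nd5 and mt-Nd6 changed it in 1. Scaled to the sum of the mitochondrially encoded genes, mt-Nd5 and mt-Nd6 were at -0.04 and -0.07. Among them, mt-Nd1 was at 14062 and 17097 CPM in H3K18R against 10923 and 11553 CPM in WT (0.43 ± 0.24), mt-Co1 at 10447 and 12091 CPM against 7597 and 8141 CPM (0.48 ± 0.24) and mt-Nd2 at 10093 and 11290 CPM against 8224 and 8520 CPM (0.32 ± 0.24). mt-Cytb (-0.08 ± 0.24), mt-Nd6 (0.03 ± 0.26) and both rRNAs (-0.09 ± 0.25 and 0.10 ± 0.24) had values near 0. edgeR called 1 of 17704 genes (0.00565%) and 0 mitochondrially encoded genes, with an adjusted p of at least 0.830 for each, and 0 of them had an unadjusted p under 0.05, where 6.44% of all genes had. DESeq2 called 0 of them and 0.667% of all genes. Summed cumulus cell markers were at 24.0 and 26.8 CPM in H3K18R against 0.856 and 8.09 CPM in WT, and summed oocyte markers at 4281 and 9010.3 CPM against 3855 and 3862 CPM, without overlap in either list. Most cumulus marker counts came from Tnfaip6 (401 and 214 in H3K18R, 13 and 259 in WT), with Ptgs2 (68 and 120) and Fst (14 and 140) in H3K18R only. Amh, Inhba, Fshr, Has2, Ptx3 and Hsd17b1 had no count in either condition. The part of these markers in the result was not tested.

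The tRNAs, which carry amino acids to the mitochondrial ribosome, gave few counts. mt-Tp held most of them, a median of 85.3% of the tRNA counts of a library, with a range of 40.4% to 92.0%. The sequences of the genes with the most counts, and of mt-Tw as a tRNA without counts, follow in the sense of the tRNA, with the anticodon in capitals. mt-Tp (chrM:15356-15422) and mt-Tq (chrM:3772-3842) lie on the minus strand, and mt-Tm (chrM:3845-3913), mt-Tl1 (chrM:2676-2750), mt-Tt (chrM:15289-15355) and mt-Tw (chrM:4950-5016) on the plus strand.
mt-Tp: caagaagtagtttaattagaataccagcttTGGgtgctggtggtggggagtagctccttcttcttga
mt-Tq: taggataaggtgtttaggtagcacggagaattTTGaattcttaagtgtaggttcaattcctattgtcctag
mt-Tm: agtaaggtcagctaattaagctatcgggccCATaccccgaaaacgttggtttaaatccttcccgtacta
mt-Tl1: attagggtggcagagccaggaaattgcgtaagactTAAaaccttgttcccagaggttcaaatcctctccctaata
mt-Tt: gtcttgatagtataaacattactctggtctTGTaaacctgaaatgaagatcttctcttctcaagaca
mt-Tw: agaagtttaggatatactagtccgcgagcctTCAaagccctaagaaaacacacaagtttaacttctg
Amplified cDNA was made into libraries with a kit for DNA, which keeps no strand, so counts of mt-Tp, mt-Tq and mt-Nd6 cannot be told apart from RNA of the opposite strand at these positions.

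mt-Tp, the tRNA of proline, was at 15.2 and 18.3 CPM in early G&N, 20.4 and 15.6 in early G&N-L, 16.8 and 19.8 in late G&N, 14.5 and 15.4 in late G&N-L, 20.6 and 18.4 in Lac-CoA, 47.2 and 47.4 in WT and 44.2 and 48.1 in H3K18R. The WT and H3K18R libraries were thus above all others, which lay together. Between WT and late G&N its log2 fold change was 1.33 ± 0.30 with an adjusted p of 0.0702 in edgeR, and DESeq2 gave 0.00298. mt-Tq, the tRNA of glutamine, followed another order, with 0.832 to 2.19 CPM in the 4 early libraries, 4.52 and 5.20 in late G&N, 6.06 and 14.5 in late G&N-L, 7.91 and 9.93 in Lac-CoA and 1.80 to 2.75 in WT and H3K18R. Between early and late G&N-L embryos its log2 fold change was 2.25 ± 0.79 (adjusted p = 0.120 in edgeR and 0.0288 in DESeq2). mt-Tm, the tRNA of methionine, had 12 to 116 counts and mt-Tl1, a tRNA of leucine, 2 to 34 counts in every library.

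The other tRNA genes had few counts or none. No count was found in any library for mt-Tw, mt-Tn, mt-Ty, mt-Ts1, mt-Tk, mt-Tg, mt-Tr and mt-Th, which at these depths allows up to 0.0490 to 0.147 CPM in a library. That limit holds for counted reads only. mt-Ts1, mt-Tk, mt-Tg and mt-Tr lie wholly within the nuclear copy. Of the 100-base windows of mt-Ty, mt-Tn and mt-Th, 46.4%, 24.7% and 18.1% also occur in the nuclear genome. Reads of these genes may have been counted elsewhere or not at all, so their 0 does not bound their level. The 10 genes mt-Tf, mt-Tv, mt-Ti, mt-Ta, mt-Tc, mt-Td, mt-Ts2, mt-Tl2, mt-Te and mt-Tt had counts in some libraries, with at most 32 counts. This highest count was that of mt-Ta, the tRNA of alanine, which had 32 and 18 counts in late G&N-L and 0 in both early G&N-L libraries (adjusted p = 0.0773). Of the tRNA counts between 1 and 19, 93.1% (67 of 72) were even numbers, against 55.1% of such counts over all genes. No tRNA gene passed the adjusted threshold in edgeR in a comparison of 2 conditions.

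Nuclear genes act on the mitochondrial genome, and 49 of them, chosen for roles in its transcription, replication and RNA processing, were followed beside its own genes. Tfam, which packages the DNA and starts transcription, Polrmt, the RNA polymerase, Lrpprc, which stabilises mRNAs, and Twnk, the helicase, were called in no comparison. In late G&N-L against G&N their log2 fold changes were -0.04 ± 0.55, -0.63 ± 2.11, 0.24 ± 0.56 and -0.12 ± 0.63, and edgeR called 0 of 47 listed genes that were tested, with 4 at an unadjusted p under 0.05, where 12% of all genes were. Between the stages in G&N, 10 of 45 were called, 3 higher and 7 lower, and in G&N-L 6 of 46, 1 higher and 5 lower, beside the 13.7% and 11.8% of all genes called. In G&N the smallest p-values belonged to Mterf4 (-4.56 ± 0.41, adjusted p = 0.00658) and Mterf1b (-4.94 ± 0.59, adjusted p = 0.0113), which are of the termination factor family, to Trmt10c, a subunit of RNase P (3.03 ± 0.41, adjusted p = 0.0142), and to Mtpap, the mitochondrial poly(A) polymerase (-2.78 ± 0.38, adjusted p = 0.0143). In G&N-L they belonged to Trnt1, which adds the CCA end of tRNAs (-1.89 ± 0.21, adjusted p = 0.0112), Mtpap (-2.00 ± 0.28, adjusted p = 0.0174), Ptcd3, a protein of the mitochondrial ribosome (-1.24 ± 0.18, adjusted p = 0.0198), and Mterf1b (-6.40 ± 1.30, adjusted p = 0.0414). In WT against late G&N, 3 of 46 were called: Rexo2, an RNase (-2.09 ± 0.23, adjusted p = 0.0413), Tefm, an elongation factor of mitochondrial transcription (3.47 ± 0.49, adjusted p = 0.0413), and Angel2 (-1.22 ± 0.21, adjusted p = 0.0463). Polrmt had 2.89 ± 0.54 in that comparison, with an adjusted p of 0.0523. Neither Lac-CoA comparison, H3K18R against WT nor the early comparison had a called gene of this list.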

How the data were processed

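RNA-seq was carried out on libraries of 5 embryos. Full-length cDNA was amplified by PCR, and libraries were prepared with a DNA library kit that keeps no strand. The authors deposited raw counts per gene for 14 libraries. Per the submitters' processing notes, reads were handled with FastQC and Trim Galore, aligned with HISAT2 to mm39 and counted with featureCounts. Their versions and the settings for strand and for reads with several matches are not given in the sources used here. The methods name 3 replicates, and the table holds 2 per condition.

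Shares and CPM were computed from library totals of 20350427 to 61275465 counts, with Wilson 95% intervals. Genes were filtered with filterByExpr, scaled by TMM and tested by edgeR 4.0.16 (quasi-likelihood, Benjamini-Hochberg adjustment over all genes tested, threshold 0.05) in R 4.3.3 on the libraries of each comparison. The script was run on simulated counts with 100 changed genes per fold. There edgeR recovered 3% of 2-fold and 30% of 4-fold changes for late G&N-L against G&N, and 0% and 4% between the stages in G&N. DESeq2 recovered 11% and 54% in both, but also called 110 and 165 unchanged genes, where edgeR called 6 and 1. A gene not called by edgeR may thus have changed, and a DESeq2 call may be false. Changed genes were drawn from all genes above a low mean count. The rates need not hold for mitochondrially encoded genes with far more counts. limma 3.58.1 was loaded by edgeR, and DESeq2 1.42.0 was the alternative. Shares were compared by exact permutation. Gene positions were taken from the GENCODE annotation of GRCm39, and copies of the mitochondrial genome in the nuclear genome were found with blastn and by exact matches of 100-base windows. All protein-coding and rRNA genes were named, and of the tRNA genes the 5 with the highest counts, any called, and those without counts in some library. The members and all lists, including the markers and the 49 nuclear genes, were chosen with earlier results of these data known. Alternatives changed scaling, filter, tool, libraries and denominator. Counts of genes without overlap on the CPM scale were added after seeing the data.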

Additional observations from a re-analysis of the deposited data

How the results depend on the processing

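Results of the permutation tests over the 7 conditions stayed under 0.05 with nuclear counts as denominator, without the 10 most abundant nuclear genes and without overlapping genes. The rRNA share did not pass among late libraries alone (adjusted p = 0.103), nor the tRNA share without WT and H3K18R (0.0751). With counts of the chromosome 1 copy added, the late minus early difference of the ratio of rRNA to protein-coding counts was 0.83 (log2) and no longer passed (adjusted p = 0.0571). These last 2 settings, and the scaling to the sum of the mitochondrially encoded genes, were chosen after seeing the data. With a library left out, that difference ranged from 0.65 to 1.07 for the ratio, from 0.84 to 1.12 for the protein-coding share, from 0.41 to 0.61 for the tRNA share, from 1.63 to 1.96 for the rRNA share and from 1.02 to 1.30 for all genes, and 10 of these 40 values had an adjusted p of 0.0571 in the exact test.

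The number of mitochondrially encoded genes called depended on tool and filter where it was low. In late G&N-L against G&N it was 0, but 3 with DESeq2 and 1 without the filter on low counts (mt-Nd6, adjusted p = 0.0417). All genes called were 0%, 4.7% and 317 of 28941 in these settings. In Lac-CoA against G&N and in the interaction 0 members were called, but 3 and 1 with DESeq2, beside 2.4% and 1.01% of all genes. Between the stages in G&N 1 member was called, but 6 with DESeq2, 6 with library totals and 5 without the filter. All genes called were 13.7%, 30.6%, 2623 of 19443 and 5060 of 29321 in these settings. With at least 10 counts in every library 6 members were called, with all 14 libraries in 1 fit 8 and with scaling to the members' own sum 0. All genes called were then 3217 of 12477, 3409 of 25041 and 1995 of 19443. In WT against G&N 2 members were called, but 7 with DESeq2, 1 with DESeq2 size factors and 0 with scaling to nuclear genes. All genes called were 4.62%, 21.6%, 597 of 18986 and 533 of 18986 in these settings. Without the filter 5 members were called, with at least 10 counts 5 and with scaling to the members' own sum 1. All genes called were then 3668 of 28129, 2971 of 13033 and 10.3%. Among the 7 conditions 14 members were called, but 5 with the latter scaling, beside 23.7% of all genes and 7075 of 25041. Library totals moved the protein-coding median between the stages from 0.44 to 0.84 in G&N and from 0.17 to 0.54 in G&N-L, and that of all genes from 0.08 to 0.46 and from 0.15 to 0.51. The cause of these differences was not tested.

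With a library left out, the number called ranged from 0 to 9 between the stages in G&N, from 2 to 4 in G&N-L and from 0 to 2 in WT against G&N, and was 0 in each of the other comparisons of 2 conditions and in the interaction. Without the second early G&N library it was 9, and without either late G&N library 0. The lone library of a condition was then assumed to vary like the others. Medians of the protein-coding genes ranged from -0.60 to -0.33 in late G&N-L against G&N, from -0.41 to 0.16 in the early comparison, from -0.09 to 0.06 in Lac-CoA against G&N-L, from -0.74 to -0.34 in Lac-CoA against G&N, from 0.17 to 0.35 in H3K18R against WT, from 0.52 to 1.09 between the stages in G&N, from 0.12 to 0.27 in G&N-L, from 0.40 to 0.59 in WT against G&N and from -0.718 to -0.056 for the interaction.

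No pairing by the replicate numbers in the titles was seen. The correlation of deviations between libraries of the same number was between -0.05 and 0.01 in 8 comparisons. A shared culture or collection is not excluded by this. With the replicate number as a block, the number called stayed at 0 in late G&N-L against G&N, at 1 and 4 between the stages in G&N and G&N-L, at 2 in WT against G&N and at 14 among the 7 conditions, and the median in late G&N-L against G&N was -0.54. All genes called in these fits were 0 of 19481, 1839 of 19443, 1391 of 18604, 804 of 18986 and 5409 of 25041.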
